A study of Mus musculus with 24 samples.

Results

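The epidermis of mice that lack Mad2 in keratinocytes was compared with control epidermis at postnatal day 20 (P20). The comparison used 5 arrays of the 24 in the series, 2 from mutants and 3 from controls, chosen by the age and genotype given in the labels. Mutants were Mad2f/f; K14Cre+, so a Cre recombinase driven by the keratin 14 promoter was meant to delete both floxed Mad2 alleles in keratin 14-expressing epithelium, and the labels record them as nude. Controls were labelled Cre-Neg with no phenotype, and the labels do not say whether they carried floxed alleles. All mice had a mixed B6-129Sv background, and the epidermis had been peeled from the dermis after overnight trypsin. RNA was hybridized to Illumina BeadChips, which carry bead-bound probes, and each gene was read as a normalized log2 intensity. The labels do not state that each array held a separate animal, so the p-values measure the spread between arrays, which may be partly technical. That spread was estimated in a joint fit of all 24 arrays, not from the 5 alone. The other arrays held P3, P6, P13 and adult epidermis. Some adult mutants were also p53f/+, an adult control was Mad2f/+ with K14-Cre, and a P3 array was assigned to no group.

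Mad2, encoded by Mad2l1, is a core protein of the spindle assembly checkpoint, which holds dividing cells in mitosis until each chromosome is attached to the spindle. Epidermal keratinocytes divide in the basal layer and then differentiate upward through spinous and granular layers into the cornified layer, while hair follicles cycle through growth, regression and rest and are rebuilt from stem cells in the bulge. In young mice the follicles rest for a time around the end of the third postnatal week. Injured or inflamed epidermis switches on a known set of genes, among them keratins 6 and 16, the S100a8 and S100a9 alarmins, small proline-rich proteins and late cornified envelope proteins of the third cluster.

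The 5 arrays lay on 2 chips. Chip 1 held mutant 1 and control 3, and chip 2 held mutant 2 with controls 4 and 5. The deposited intensities of chip 2 already had a background subtracted, as their values below 0 show, and the share of probes detected ran from 23.3% in mutant 2 to 33.5% in control 3. Across genes, control 3 correlated at 0.895 and 0.888 with controls 4 and 5, below its correlation of 0.929 with mutant 1 on its own chip. Controls 4 and 5 correlated at 0.979. The mutants, which lay on different chips, correlated at 0.896. Mutant 2 correlated at 0.914 and 0.911 with controls 4 and 5 on its own chip. Endothelial and blood cell genes summed to a normalized intensity of 74160 in control 3, against 4043 and 2990 in controls 4 and 5 and 1351 and 1242 in mutants 1 and 2. A check of X- and Y-linked transcripts put both mutants on the female side (2 of 2) and no control (0 of 3), so genotype and sex cannot be told apart at P20. X- and Y-linked genes were left out, which removed 359 of 14215 genes tested and left 13856. A sex term estimated from the other groups passed the threshold for 0 of these genes in limma and had an unadjusted p under 0.05 for 338.

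Defining keratinocyte genes were bright in every array, with Krt14 between 15.03 and 15.64 and Krt10 between 15.20 and 15.67. Genes of other cell types were detected as well, among them 22 of 24 fibroblast genes and 17 of 17 T and NK cell genes in at least 1 of the 5 arrays, after a filter on detection that all tested genes had passed.

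The targeted gene was measured first. Mad2l1 stood at 4.65 and 5.39 in mutants 1 and 2 and at 6.50, 7.55 and 7.66 in controls 3 to 5. Both mutants lay below every control, and neither mutant gave a signal above background. With the floor set by the dimmest detected probes, Mad2l1 was at least 1.84-fold lower in mutants (limma adjusted p = 0.0042). In the authors' normalized values the difference was -0.64 log2 units and did not pass (limma adjusted p = 0.071). These values are from the brightest Mad2l1 probe. Another probe of the gene differed by -0.25 and was detected in none of the 5 arrays. The mean of the probes differed by -1.23 and was called. The labels do not say which exons were deleted, so whether either probe lies within them is not given in the sources used here. Trp53, the gene of the tumour suppressor p53, differed by -0.35 ± 0.56 log2 units (SE, limma adjusted p = 0.775). Krt14, whose promoter drives Cre, differed by 0.07 ± 0.20 (limma adjusted p = 0.889), and it lay between 15.03 and 15.64 in all 5 arrays.

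A gene was called where its limma adjusted p was under 0.05 over all genes tested and its difference had the same sign on both chips. By that rule 1393 of 13856 genes (10.1%) were called, 614 higher in mutants (4.43%) and 779 lower (5.62%). The sign rule removed 1 gene that had passed the p alone. Across all genes the differences on the chips correlated at 0.492, a value over genes, which are not independent replicates. Calls whose mutant and control arrays did not overlap made up 4.38% of genes on the higher and 5.51% on the lower side. Without any test, 24.3% of genes had mutant and control arrays that did not overlap, and for 59.4% the difference over all arrays and the difference on each chip had the same sign.

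**Figure D1:**
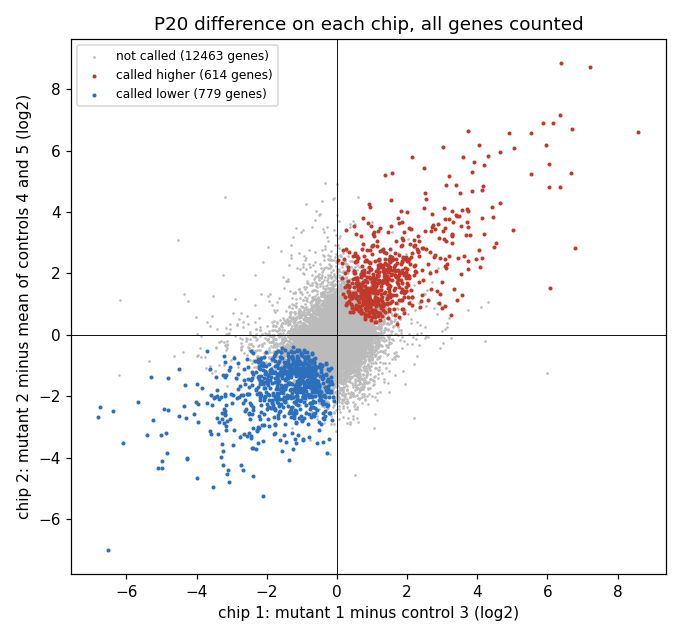
Each point is a gene, plotted by its log2 difference on chip 1 (mutant 1 minus control 3, horizontal) and on chip 2 (mutant 2 minus the mean of controls 4 and 5, vertical). The 614 genes called higher lie in the upper right quadrant and the 779 called lower in the lower left, as the call rule requires.

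These counts moved with the choice of fit. With sex as a covariate 434 genes were called, and without control 3 there were 3153. Fitting the P20 arrays alone left 61 calls, and 422 when the chip was added as a block.

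Genes of wounded and hyperproliferating epidermis made up most of the largest rises. Of 37 tested members of that list, 27 rose and 1 fell, with a median difference of 3.33 log2 units against -0.04 over all genes. The counts of this and each later list stand beside shares over all genes of 4.43% called higher and 5.62% called lower. Members of the small proline-rich, late cornified envelope, stefin and Serpinb3 families resemble each other, and whether a probe also binds a relative was not tested. With sex as a covariate 17 members were called higher, without control 3 there were 27, and in the fit of the P20 arrays alone 9.

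Stfa2, a stefin that inhibits cysteine proteases, showed the largest rise. It stood at 15.16 and 15.41 in the mutants and at 7.96, 6.77 and 6.59 in controls 3 to 5. The mutant arrays lay far above all controls, with a difference of 8.18 ± 0.42 log2 units (SE), or 289-fold (limma adjusted p = 1.21e-08). Sprr2d, a small proline-rich precursor of the cornified envelope, reached 14.27 and 14.97 in the mutants against 7.89, 6.33 and 5.91 in the controls. Only control 3 gave a detectable Sprr2d signal, and the fitted rise was 7.91 ± 0.66 log2 units (limma adjusted p = 3.33e-06). Its neighbour Sprr2e stood at 11.30 and 11.49 in the mutants and was detected in no control, which makes the rise at least 37.2-fold (limma adjusted p = 3.55e-06). Lce3f, a late cornified envelope gene, stood at 12.55 and 11.90 in the mutants against 6.18, 4.84 and 4.64 in the controls, a rise of 7.00 ± 0.58. Lce3e was detected in both mutants (10.74 and 10.73) and in no control, and rose at least 23.7-fold. Lce3c rose by 5.59 ± 0.61, and Lce3b and Lce3a also rose, so all 5 Lce3 genes tested were called higher. Serpinb3a, a serine and cysteine protease inhibitor, stood at 12.65 and 11.92 in the mutants against 5.94, 4.97 and 5.44 in the controls and rose by 6.84 ± 0.51, nearly equally on chip 1 (6.71) and chip 2 (6.72).

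To show the regions upstream of these co-rising genes, the promoter windows of 4 of the largest rises are printed from RefSeq (GRCm38.p6), each running from 250 bases before to 50 after the annotated start, 5′ to 3′ on the gene's strand. Capitals mark matches on either strand to TGANTCA, the motif of the AP-1 factors, or to TATAAA, the core of the TATA box. The motifs did not overlap in these windows. Krt15, the largest fall, is not shown.
Sprr2d (chr3:92338890-92339189, plus strand): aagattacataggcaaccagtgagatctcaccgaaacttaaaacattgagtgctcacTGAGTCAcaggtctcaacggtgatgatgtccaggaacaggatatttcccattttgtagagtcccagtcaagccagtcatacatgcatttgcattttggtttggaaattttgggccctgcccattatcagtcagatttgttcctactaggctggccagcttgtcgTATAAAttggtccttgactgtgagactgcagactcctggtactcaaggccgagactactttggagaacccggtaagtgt
Sprr2e (chr3:92351893-92352192, plus strand): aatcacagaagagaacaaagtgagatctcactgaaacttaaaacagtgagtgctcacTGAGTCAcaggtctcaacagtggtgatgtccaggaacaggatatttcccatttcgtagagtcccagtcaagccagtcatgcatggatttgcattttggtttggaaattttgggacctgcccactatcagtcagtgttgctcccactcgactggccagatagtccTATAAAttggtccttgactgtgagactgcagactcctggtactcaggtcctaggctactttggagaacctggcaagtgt
Stfa2 (chr16:36408314-36408613, minus strand): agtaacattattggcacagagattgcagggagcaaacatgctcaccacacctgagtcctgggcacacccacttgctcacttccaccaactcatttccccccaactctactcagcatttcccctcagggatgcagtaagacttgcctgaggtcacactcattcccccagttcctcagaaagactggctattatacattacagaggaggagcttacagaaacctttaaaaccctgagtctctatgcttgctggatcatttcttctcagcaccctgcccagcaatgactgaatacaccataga
Lce3f (chr3:92991967-92992266, plus strand): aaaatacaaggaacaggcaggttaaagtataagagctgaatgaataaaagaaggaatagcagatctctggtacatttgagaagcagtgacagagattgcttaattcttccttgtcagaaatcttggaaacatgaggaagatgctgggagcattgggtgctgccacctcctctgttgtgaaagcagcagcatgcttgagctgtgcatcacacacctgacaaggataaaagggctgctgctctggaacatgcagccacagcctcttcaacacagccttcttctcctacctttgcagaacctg
The Sprr2d and Sprr2e windows were identical at 264 of 300 positions (88%), and each held 1 match to both motifs at the same place. The Stfa2 and Lce3f windows held neither string of letters. Among the windows of the 12 genes with the largest rises, TGANTCA occurred in 3 and TATAAA in 7. Sprr2d and Sprr2e, with their similar windows, count among both. Over all 32841 windows of the table the shares were 7.81% and 13.6%. Among the 511 windows of genes called higher they were 10.6% and 14.5%, near those shares. A match describes the letters of the window and shows no binding.

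Other members rose by less, were not called or fell. Krt16, a keratin of activated keratinocytes, stood at 15.20 and 15.04 in the mutants against 10.56, 9.26 and 8.90 in the controls and rose by 5.55 ± 0.50 (limma adjusted p = 7.77e-06). Krt6b, its type II partner, rose by 4.18 ± 0.73, while Krt6a differed by 1.63 and Krt17 by -0.12 and neither was called. S100a8, an alarmin of the calprotectin complex, stood at 13.11 and 11.62 in the mutants and at 8.80, 4.65 and 6.95 in the controls, with a rise of 5.57 ± 0.85. S100a9, the other calprotectin subunit, rose by 4.94 ± 0.98. Some members act against microbes or proteases: the beta-defensin gene Defb14 rose by 4.80 ± 0.52, Slpi, a protease inhibitor, at least 8.36-fold, and Lcn2, which binds bacterial siderophores, at least 3.64-fold. Hbegf, a ligand of the epidermal growth factor receptor, rose by 2.30 ± 0.37, while Areg and Epgn, ligands of the same receptor, differed by 1.40 and 1.60 and were not called. Mmp9, a gelatinase, went against the list: it stood at 6.76 and 6.34 in the mutants against 8.42, 8.66 and 8.67 in the controls and fell by 2.03 log2 units (SE 0.31, limma adjusted p = 5.88e-04).

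**Figure D2:**
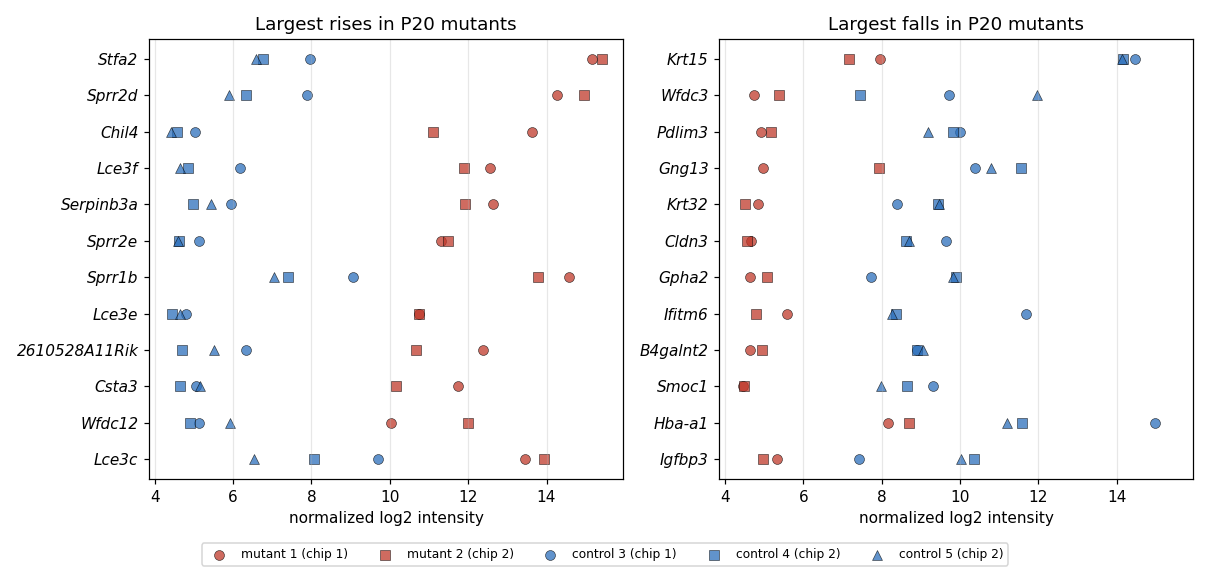
Normalized log2 intensity of the 12 largest rises (left) and the 12 largest falls (right) in each of the 5 P20 arrays. Red points are mutants and blue points controls, with circles for chip 1. For Stfa2 the mutants stand at 15.16 and 15.41 and no control is above 7.96, and for Krt15 the mutants stand at 7.96 and 7.16 and no control is below 14.13.

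Other genes completed the largest rises. Chil4, a chitinase-like secreted protein, stood at 13.62 and 11.10 in the mutants, was detected in no control and rose at least 72.8-fold (limma adjusted p = 0.0035, and 0.099 with sex as a covariate). Csta3, another stefin, rose at least 27.5-fold, and Wfdc12, a whey acidic protein family antiprotease, at least 28.8-fold. The transcript 2610528A11Rik rose by 6.01 ± 0.55 log2 units.

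Genes of the differentiating layers rose in part. Among 38 tested spinous and granular layer genes 12 rose and 2 fell, with a median of 0.86 that differed between chip 1 (0.11) and chip 2 (1.10). Sprr1b, a cornified envelope precursor, stood at 14.58 and 13.79 in the mutants against 9.05, 7.41 and 7.04 in the controls and rose by 6.35 ± 0.52. Rptn, which encodes repetin, stood at 14.86 and 15.19 against 13.32, 11.41 and 10.17 and rose by 3.39 ± 0.65. Krt1, the main type II keratin of the spinous layer, stood at 15.57 and 14.46 against 12.11, 12.23 and 11.69 and rose by 3.00 ± 0.39. Its partner Krt10 did not pass the test (difference 0.00). Casp14, a caspase of cornification, rose by 1.78 ± 0.25 and Flg, the precursor of filaggrin, by 0.90 ± 0.27. Lce1g, Lce1f, Lce1i, Lce1e and Lce1d rose too, but control 3 lay close to the mutants for several of them: Lce1f stood at 14.20 and 12.77 in the mutants and at 13.25, 8.37 and 8.85 in the controls. The falls were Krt77, a keratin of sweat ducts and adult epidermis, by 2.90 log2 units, and Krt2, a keratin of the upper spinous layer, at least 1.85-fold. Sex as a covariate left 5 members called higher. Without control 3 the count was 25, without mutant 1 it was 5, and without control 4 or control 5 it was 7.

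Barrier lipid genes followed with smaller differences. Of 27 tested, 5 rose and 1 fell, with a median of 0.38, where 4.43% of all genes were called higher and 5.62% lower. Degs2, a ceramide desaturase and hydroxylase, stood at 10.32 and 10.04 in the mutants against 7.84, 4.63 and 4.56 in the controls and rose by 4.50 ± 0.81. Sdr9c7 rose by 1.47 ± 0.27 at its brightest probe, but its other probes differed by 0.58 and -1.59, and the mean of its probes, 0.15, did not pass (limma adjusted p = 0.87). Slc27a4, a fatty acid transporter, rose by 1.04 ± 0.28 (0.57 without mutant 2, not called), and Smpd1, a sphingomyelin hydrolase, by 0.99 ± 0.27. Elovl6, a fatty acid elongase, fell by 1.32 log2 units. In the cholesterol synthesis list 3 of 20 rose and none fell: Stard4 by 1.84 ± 0.46, Mvk by 1.00 ± 0.25 and Hsd17b7 by 0.96 ± 0.20. Neither list kept a call (0) with sex as a covariate, where the difference was 3.89 for Degs2, 1.87 for Stard4 and 1.01 for Hsd17b7. Without control 3 the lists held 9 rises each, and without control 5 the lipid list held 2 (3 without mutant 2 or control 4). The rise of Stard4 was 1.21 without control 5.

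Markers of hair follicle stem cells were often called lower. Of 18 tested, 8 fell and 2 rose, with a median of -0.88. The list of basal keratinocyte genes had a similar median, -0.96, with 0 members called lower. Krt15, the keratin that marks bulge stem cells, stood at 7.96 and 7.16 in the mutants and at 14.48, 14.17 and 14.13 in the controls. The groups were far apart on both chips, by -6.52 on chip 1 and -6.99 on chip 2, and the fall was 6.70 ± 0.74 log2 units, or 104-fold (limma adjusted p = 3.21e-05). Sox9, a transcription factor of follicle stem cells, stood at 11.15 and 12.15 against 13.89, 14.05 and 14.19 and fell by 2.39 log2 units (SE 0.26). Tbx1, a factor of bulge cells, stood at 5.66 and 7.78 against 9.27, 8.87 and 8.94. It fell by 2.30 log2 units, more on chip 1 (-3.61) than on chip 2 (-1.12), and without mutant 1 the difference of -1.24 did not pass. Foxc1, Lrig1, Tcf7l2, Nfatc1 and Lgr6 were also called lower. Lrig1, a growth factor receptor inhibitor of the upper follicle, fell by 1.80 log2 units, and Nfatc1, a factor of quiescent bulge cells, by 0.92. Cd34 and Lgr5, other markers of bulge cells, were detected in none of the 5 arrays. The rises were Aqp3, a glycerol channel of basal keratinocytes as a whole (3.33 ± 0.42), and Fgf1 (1.75 ± 0.41). With sex as a covariate 2 members were called lower, Krt15 (-6.97) and Sox9 (-2.22), and 2 higher. The count of falls was 3 without mutant 1, 5 without mutant 2 or control 5, and 1 in the fit of the P20 arrays alone, where Krt15 passed. In bulk RNA, fewer cells of a type and less RNA per cell cannot be told apart.

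Some hair shaft keratins were called lower at P20. Of 13 tested none rose and 3 fell, where 5.62% of all genes were called lower. Their median was -0.70 against -0.04 over all genes, and 0 of the 13 differences were positive. Krt32, a cuticle keratin of the hair shaft, stood at 8.38, 9.44 and 9.46 in the controls, was detected in no mutant and fell at least 6.67-fold (limma adjusted p = 1.87e-05). Krt33a stood at 6.14 and 4.60 in the mutants against 8.54, 6.77 and 7.09 and fell by 2.10 log2 units (a difference of -1.33 without mutant 2, not called). Krt36 was detected in 1 control and no mutant, and the mean of its probes (-0.45) did not pass. With sex as a covariate Krt32 stayed called (-3.53), while Krt33a (-1.56) and Krt36 (-0.95) did not. Krt33a and Krt36 were also not called in the authors' normalized values, with differences of -0.685 and -0.295. Of 27 keratin-associated protein genes, which encode the matrix of the hair shaft, 1 fell: Krtap3-1, detected in all 3 controls and no mutant, at least 2.84-fold. That count was 6 with the chip as a block, 11 on chip 1 alone, 4 without control 5, 3 without control 4 and 0 in the authors' normalized values. Krtap3-1 stayed called with sex as a covariate (-2.38). Control 3 carried the highest summed intensity of the keratin-associated protein list, 4082, against 1067 and 1214 in controls 4 and 5 and 763 and 787 in the mutants.

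In the inner root sheath and companion layer list 1 of 13 rose and 1 fell. Tgm3, a transglutaminase that crosslinks trichohyalin and envelope proteins, rose by 2.01 ± 0.54 (1.19 without control 3), and Gata3, a factor of inner root sheath fate, fell by 1.06 log2 units. Among 19 hair matrix and follicle signalling genes 5 fell and 1 rose. Nkd2, a Wnt pathway inhibitor, stood at 8.71, 8.71 and 8.49 in the controls, was detected in no mutant and fell at least 4.86-fold (limma adjusted p = 2.27e-04). Bmp4, a ligand of the bone morphogenetic protein pathway, stood at 5.76 and 8.25 in the mutants against 7.92, 10.93 and 10.58. The groups overlapped for Bmp4, since control 3 lay below mutant 2, and the fall was 2.81 log2 units (SE 0.85, limma adjusted p = 0.047), with a difference of -1.56 that did not pass without mutant 1. Cux1 fell by 1.92 log2 units at its brightest probe, while the mean of its probes (-0.88) did not pass. Ptch1, the Hedgehog receptor, fell by 1.71 log2 units (a difference of -0.99 without mutant 2, not called). The list held 8 falls without control 3. With sex as a covariate Nkd2 stayed called (-2.88), while Bmp4 (-1.72), Cux1 (-1.33) and Ptch1 (-1.24) did not. Gata3 (-0.80) and Tgm3 (1.62) were not called in that fit either. Fgf5, which ends hair growth, was detected in 1 control and no mutant and was called lower. Ovol1, a factor of keratinocyte differentiation, rose by 1.19 ± 0.23.

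Several of the largest falls lay outside these lists. Pdlim3, a PDZ and LIM domain protein bound to actin, stood at 10.004, 9.82 and 9.18 in the controls, was detected in no mutant and fell at least 9.95-fold (limma adjusted p = 2.59e-07). B4galnt2, a glycosyltransferase, stood at 8.90, 8.91 and 9.05 in the controls, again with no mutant detected, and fell at least 6.06-fold (limma adjusted p = 1.21e-08). The spread within each group was small for both genes. Cldn3, a claudin of tight junctions, fell at least 6.19-fold, Gpha2, a glycoprotein hormone subunit, at least 6.94-fold, Smoc1, a secreted calcium-binding protein, at least 4.90-fold, and Igfbp3, which binds insulin-like growth factors, at least 7.57-fold. Gng13, a G protein gamma subunit, stood at 4.96 and 7.93 in the mutants against 10.38, 11.56 and 10.79 and fell by 4.47 log2 units (a difference of -2.98 without mutant 1). Ifitm6 and Wfdc3 varied more among controls: Wfdc3 stood at 9.72, 7.44 and 11.97. They fell at least 8.43-fold and 10.2-fold.

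Some genes of T and NK cells fell. Mouse epidermis normally houses dendritic epidermal T cells, which carry a gamma-delta receptor and signal through the CD3 complex. Of 17 tested genes none rose and 6 fell, with a median of -1.05 that was -1.39 on chip 1 and -0.28 on chip 2. Cd3e stood at 6.77 and 8.55 in the mutants and at 10.62, 10.55 and 9.99 in the controls, and it fell by 2.73 log2 units (SE 0.49, limma adjusted p = 0.0021). Cd3g, another CD3 chain, stood at 7.26 and 8.75 against 10.96, 11.20 and 10.73 and fell by 2.96 log2 units. For both, mutant 1 lay lowest and no mutant reached a control. Trat1, an adaptor of the T cell receptor, was detected in all 3 controls and in no mutant and fell at least 4.08-fold, and Cd7 fell at least 1.82-fold. Cd3d and Nkg7, a cytotoxic granule protein, fell by 2.04 and 2.07 log2 units. The count was 6 with sex as a covariate, 8 without control 3 and 1 in the fit of the P20 arrays alone, where Trat1 passed.

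Fewer members of the other immune lists were called. Among 13 Langerhans cell and MHC class II genes 12 had negative differences and 1 passed the test: Ciita, the master activator of MHC class II, fell by 1.61 log2 units. The list's median was -1.02, close to that of the T and NK cell genes. Ciita was not called with the chip as a block (limma adjusted p = 0.057), and without control 3 the list held 3 falls. Cd207, which encodes langerin, differed by -1.60 and was not called. Of 19 macrophage and myeloid genes Cxcr2, a chemokine receptor of neutrophils, was called higher, detected in 1 mutant and no control (1.16 without mutant 1, not called). Among 23 cytokine and chemokine genes 1 rose and 2 fell (4 and 3 with the chip as a block, 5 and 2 without control 3). Tnf stood at 6.99, 8.96 and 8.47 in the controls, was detected in no mutant and fell at least 3.45-fold. Cxcl12 fell by 2.92 log2 units at its brightest probe, while its other probes differed by -0.50 and -0.56. Il1rn, the interleukin 1 receptor antagonist, rose by 1.05 ± 0.32 at its brightest probe, while the mean of its probes (0.69) did not pass.

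Interferon response genes were higher in part. Of 26 tested, 7 rose and none fell, with a median of 1.29. Oas1g, an oligoadenylate synthetase that senses double-stranded RNA, stood at 9.99 and 10.79 in the mutants against 7.48, 6.75 and 5.57 in the controls and rose by 3.79 ± 0.69 (limma adjusted p = 0.0023). Oasl2, Bst2, which tethers enveloped viruses, and Dhx58 rose by 3.40 ± 0.90, 2.99 ± 0.61 and 2.75 ± 0.72. Ifit3, Irf7 and Gbp3 were also called. With sex as a covariate 1 member, Oas1g, was called, and in the authors' normalized values 2, while without control 3 there were 9. Without mutant 2 or control 4 the count was 2, and without control 5 it was 3. Dhx58 differed by 1.57 without mutant 2 and was not called.

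Genes of cell division showed no called member apart from the target and Espl1. None of 20 mitosis genes and none of 30 DNA replication genes was called by limma, and 0 of either list had an unadjusted p under 0.05. Cenpa, the histone of the centromere, stood at 9.79 and 10.67 in the mutants and at 9.33, 10.85 and 11.03 in the controls, so the groups overlapped. Prc1 and Mcm4 overlapped likewise, with differences of -0.40 ± 0.52 and -0.21 ± 0.36. The mitosis list differed between chips, with a median of 0.56 on chip 1 and -0.33 on chip 2, and without control 3 it held 1 member called lower. In the checkpoint list of 16, Mad2l1 fell and Espl1, which encodes separase, fell by 1.80 log2 units (SE 0.48). Without mutant 1 Espl1 differed by -0.78 and was not called (limma adjusted p = 0.31), and without mutant 2 by -2.82. Without control 3 the checkpoint list held 1 rise and 4 falls, and the replication list 1 and 2. The other members, Bub1b, Bub3, Cdc20 and Mad1l1 among them, were not called.

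Known targets of p53 were called in both directions. Of 32 tested, 6 rose and 2 fell, with a median of 0.19. Pmaip1, the death effector NOXA, was detected in 1 mutant and no control (not called without mutant 1). It rose at least 2.46-fold if the undetected mutant is taken at its measured level. Sfn, the 14-3-3 sigma protein, rose by 1.28 ± 0.30, Phlda3 by 0.90 ± 0.23, Plk2 by 1.33 ± 0.36 and Gadd45a by 0.85 ± 0.22. Sesn1, a stress-induced sestrin, stood at 9.55 and 9.91 in the mutants against 11.55, 12.11 and 12.19 and fell by 2.22 log2 units (SE 0.32, limma adjusted p = 3.45e-04). Cdkn1a and Mdm2, canonical targets, differed by 0.16 and 0.06 and were not called. Sex as a covariate left 0 members called higher and 1 lower, Sesn1, and without control 3 there were 8 higher and 4 lower. Without mutant 1 the count of rises was 0, and without control 4 or control 5 it was 3. In the senescence list of 13, Vegfa, an angiogenic growth factor, rose by 2.95 ± 0.64, and Glb1, the lysosomal beta-galactosidase, Lmnb1, a nuclear lamin, and Igfbp3 fell. Lmnb1 differed by -0.69 without mutant 1 and was not called, and the mean of its probes (-0.59) did not pass. The list held 3 rises and 4 falls with the chip as a block or without control 3.

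Antioxidant genes held 4 rises and no fall among 24. Srxn1, which reactivates peroxiredoxins, stood at 9.89 and 9.96 in the mutants against 8.01, 7.58 and 7.28 and rose by 2.30 ± 0.25 (limma adjusted p = 3.12e-05). The glutathione transferases Gsta4, Gsta1 and Gsto1 rose by 3.03 ± 0.68, 2.55 ± 0.56 and 1.90 ± 0.43, and Gsto1 differed by 1.19 without mutant 1 and was not called. The list held 1 rise without mutant 1 and 7 without control 3. Slc7a11, the cystine transporter and a member of the integrated stress response list, was detected in both mutants and no control and rose at least 3.02-fold. In that list of 23, Trib3 rose as well, by 0.99 ± 0.28, but another of its probes differed by -0.24 and their mean (0.58) did not pass. The count of rises was 5 with the chip as a block and 6 without control 3. Of 28 heat shock and proteasome genes Bag3 and Psmd12 rose by 0.76 ± 0.22 and 0.86 ± 0.26, and Hspa1a fell by 0.99 log2 units. These 2 rises and 1 fall lie near the shares over all genes, 4.43% higher and 5.62% lower. Psmd12 differed by 0.45 without mutant 1 and was not called. This list held 7 rises and 3 falls with the chip as a block, 6 and 3 without control 3, 4 and 0 without mutant 2, and 0 of either without control 4.

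Markers of other cell types were read for the cells that a peeled epidermis can hold. Of 13 melanocyte genes 4 rose and none fell. Ednrb, the endothelin receptor of melanocytes, stood at 9.07 and 9.02 in the mutants against 8.20, 6.43 and 6.12, and rose by 2.13 ± 0.51. Control 3 lay nearer to the mutants than the other controls did, and with sex as a covariate 1 melanocyte gene, Ednrb, was called. Without control 3 there were 9 calls, without control 4 none (0) and without control 5 there was 1. Mlana, Kit and Oca2 were the other members called, and Kit was not called without control 5 (1.20) or with the mean of its probes (0.97).

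Of 24 fibroblast genes 1 rose, Fbln1, and 2 fell, Col6a1 and Col5a1 (4 falls without control 5). The main counts lie near the shares over all genes, 4.43% higher and 5.62% lower. The fibroblast list summed to 8574 in control 3 and to between 3524 and 4749 in the other 4 arrays. Of 15 endothelium and blood genes 1 rose and 2 fell, and without mutant 1 none (0) was called. Flt1, a receptor of vascular endothelial growth factor, was detected in both mutants and no control and rose at least 1.91-fold (limma adjusted p = 0.026). Emcn, an endothelial sialomucin, was called lower but detected in none of the 5 arrays. Hba-a1, an alpha globin, stood at 14.97, 11.57 and 11.19 in the controls and 8.16 and 8.71 in the mutants. It fell by 4.14 log2 units, with differences of -6.80 on chip 1 and -2.67 on chip 2, and by 2.95 without control 3. The part of dermal and blood RNA in the differences of other genes was not tested. Acta2, a smooth muscle actin also made by other contractile cells, rose by 2.67 ± 0.55 at its brightest probe. Its other probes differed by 2.06, 0.34 and 0.21, and the skeletal muscle members were not called. Of 5 Merkel cell and sweat gland genes, Krt7, a simple epithelial keratin, rose by 3.11 ± 0.32 and Aqp5 by 2.63 ± 0.57. Fat cell and mast cell lists held 1 rise each and no fall. The sebaceous list held 2 rises and 0 falls, but 2 and 2 with the chip as a block, 0 and 1 without mutant 1 and 4 and 0 without control 3, and the nerve list held no call (1 with an unadjusted p under 0.05). The sebaceous members included Fabp5, which keratinocytes also express and which rose by 4.17 ± 0.95. In the basal keratinocyte list Igfbp2 rose at least 3.92-fold and the other 14 members were not called, while 5 were called lower without control 3. The basal list's median was -0.96, with 0.01 on chip 1 and -1.12 on chip 2, and 3 of 15 differences were positive.

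**Figure D3:**
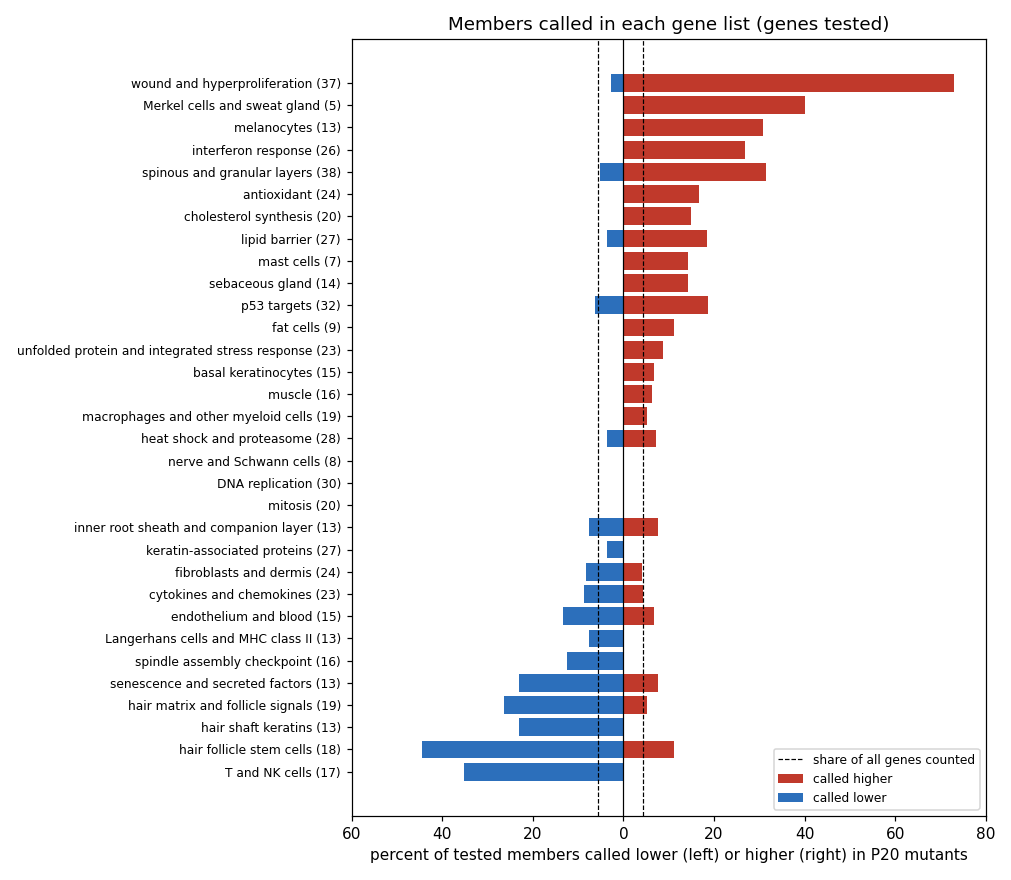
Percent of the tested members of each gene list called higher (right, red) or lower (left, blue) in P20 mutants, with the number tested in brackets. The dashed lines mark the shares over all genes, 4.43% higher and 5.62% lower. The wound and hyperproliferation list has 27 of 37 members called higher, and mitosis and DNA replication have none called.

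The P20 differences were then set beside those at P13, the nearest earlier age at which mutants were also labelled nude (2 mutant and 2 control arrays, on another chip). At P13 1399 genes (10.1%) were higher and 1454 (10.5%) lower at an adjusted p under 0.05. Of the genes called higher at P20, 330 were also higher at P13, which is 53.7% of the P20 genes and 23.6% of the P13 genes. Of those called lower, 206 were lower at P13, 26.4% of the P20 and 14.2% of the P13 genes. The difference between the age effects passed the threshold for 1068 genes (7.71%), 515 with the P20 effect above the P13 effect (3.72%) and 553 below (3.99%). A check of X- and Y-linked transcripts put both P13 mutants and 1 of 2 P13 controls on the female side.

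Hair genes separated the ages. All 13 hair shaft keratins and 23 of 27 keratin-associated protein genes were lower in mutants at P13, with medians of -7.92 and -6.75, and for 11 and 21 of them the P20 effect was above the P13 effect. The mean level of the hair shaft keratins in controls was 12.14 and 12.29 at P13 and 7.08, 5.81 and 5.76 at P20, while mutants stood at 6.09 and 5.53 at P13 and 5.31 and 5.04 at P20. Between the ages the controls moved far more than the mutants. The P13 arrays also carried more dermal signal. Fibroblast genes had mean levels between 9.44 and 10.11 in the P13 arrays and between 5.64 and 7.64 in the P20 arrays. The part of dermal RNA in the level changes between ages, for these and other lists, was not tested. Krt31, a shaft keratin, differed by -8.62 at P13 and -0.34 at P20, where it was detected in 1 control and no mutant. Krt72 and Krt73, inner root sheath keratins, had P20 effects above P13 by 8.50 and 8.96 log2 units. Crym, which encodes a thyroid hormone-binding protein, was also detected in 1 control and no mutant at P20, and its effects differed by 8.67.

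Padi1, a peptidylarginine deiminase, changed direction. It stood at 9.75 and 10.999 in the P20 mutants against 6.17, 4.80 and 5.61 in the controls, a rise of 4.85 ± 0.45, while at P13 it fell by 4.19 log2 units (limma adjusted p = 1.89e-05). Depp1 did the opposite: it rose at P13 by 2.87 and fell at P20 at least 5.40-fold. C3, a complement component, rose by 3.76 at P13 and differed by -1.11 at P20, where it was not called. Wfdc3 and Smoc1 fell at P20 and differed by -0.08 and 0.37 at P13.

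Wound genes were raised at both ages, 28 members at P13 and 27 at P20, with medians of 4.64 and 3.33. For 3 members the P20 effect was below the P13 effect and for 0 above. Stfa2 rose by 6.16 at P13 and 8.18 at P20, and this difference did not pass (limma adjusted p = 0.060). The T and NK cell genes differed between the ages. None of the 17 was lower at P13 (0) and 1 was higher, and for 5 the P20 effect was below the P13 effect. Trat1 and Cd7 differed by -0.31 and -0.04 at P13, against their falls at P20. Summarised as the list's mean level, P13 mutants stood at 7.05 and 7.01 and P13 controls at 6.68 and 6.52, while P20 mutants stood at 6.49 and 7.51 and P20 controls at 8.23, 8.47 and 8.13. The P20 controls were the highest arrays of these ages. Melanocyte genes also differed between the ages, with 4 of 13 lower at P13 and 4 higher at P20, and for 6 the P20 effect was above the P13 effect. Mlana differed by -2.06 at P13 and 1.89 at P20.

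**Figure D4:**
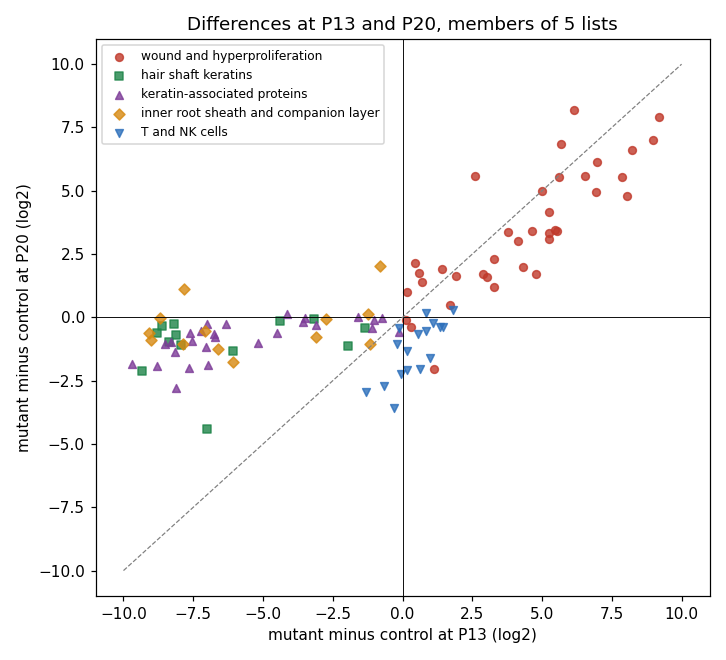
Each point is a gene of 5 lists, plotted by its mutant minus control difference at P13 (horizontal) and at P20 (vertical) in log2 units, with the line of equal differences dashed. Hair shaft keratins, with a median of -7.92 at P13 and -0.70 at P20, lie along the horizontal axis, and wound genes lie in the upper right.

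**Figure D5:**
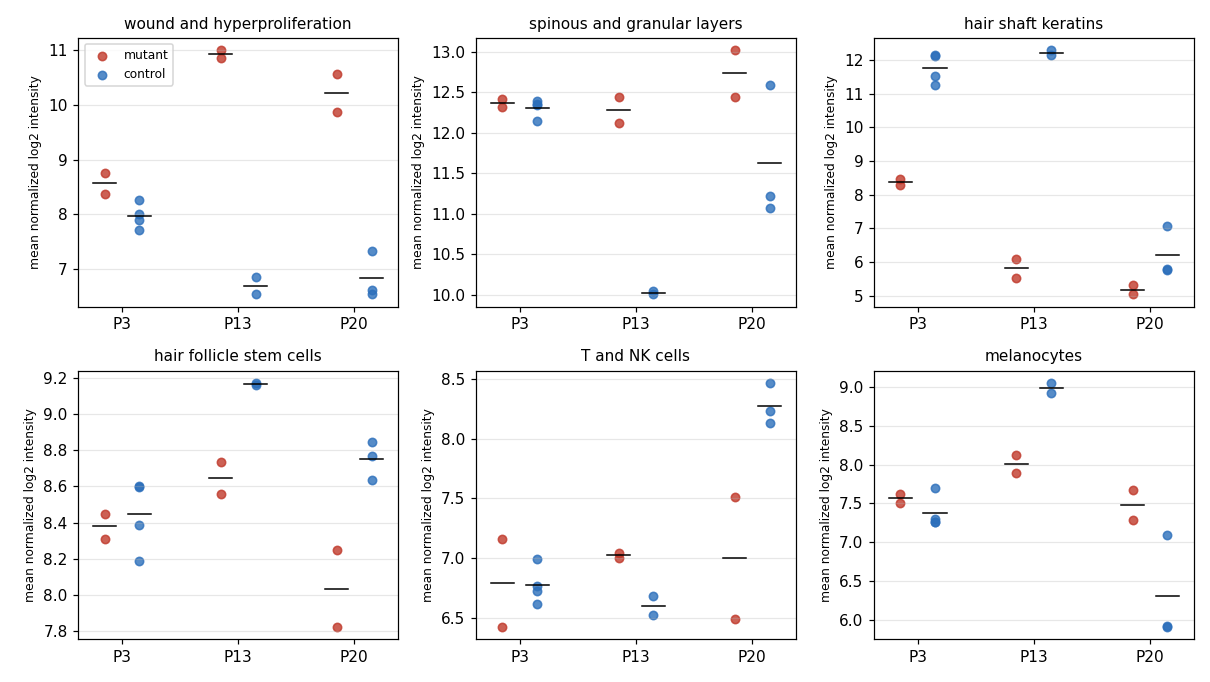
Mean normalized log2 intensity of 6 gene lists in every P3, P13 and P20 array of mutants (red) and controls (blue), with a black bar at the group mean. Hair shaft keratins stand at 12.14 and 12.29 in P13 controls and at 7.08, 5.81 and 5.76 in P20 controls. T and NK cell genes are highest in the P20 controls, at 8.23, 8.47 and 8.13.

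Mutants at P3 carried no recorded phenotype (2 mutant and 4 control arrays). At that age 39 genes (0.281%) were higher and 230 (1.66%) lower. The P20 effect differed from the P3 effect for 489 genes (3.53%), with 301 above (2.17%) and 188 below (1.36%). Mad2l1 was lower in mutants at P3 too, by 2.28 log2 units (limma adjusted p = 0.0048), close to its P20 difference, so the ages differed by 0.07 (limma adjusted p = 0.976).

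Few of the genes called at P20 passed the threshold at P3. Of the genes called higher at P20, 14 were higher at P3 (2.28% of the P20 and 35.9% of the P3 genes), and of those called lower, 37 were lower at P3 (4.75% and 16.1%). Stfa2 differed by 1.12 at P3 and was not called, against its rise of 8.18 at P20, and the effects differed by 7.06. Chil4 and S100a8 differed by -0.02 and -0.87 at P3, and their P20 effects were above by 7.71 and 6.44. Sprr2d and Krt16 were already higher at P3, by 2.73 and 2.81 log2 units. In the wound list 4 of 37 members were higher at P3, and for 15 the P20 effect was above the P3 effect and for 2 below.

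Psors1c2 changed direction between the ages. It stood at 9.66 and 11.23 in the P20 mutants against 7.51, 4.60 and 6.28 in the controls, a rise of 4.32 ± 0.60, while at P3 it fell by 3.56 log2 units (limma adjusted p = 0.0013). Krt15 differed by -0.06 at P3, where it was not called, and by -3.45 at P13, where it was. Its P20 effect was below the P3 effect by -6.64 (limma adjusted p = 0.0014), while the difference from P13 did not pass (-3.25, limma adjusted p = 0.086). Col4a1, a basement membrane collagen, stood at 7.60, 8.66 and 8.12 in the P20 controls, was detected in no P20 mutant and fell at least 3.42-fold, while at P3 it was higher in mutants by 1.44 log2 units. Cyp4v3, a fatty acid hydroxylase, fell at least 7.93-fold at P20 and differed by 0.70 at P3. Krtap19-4 was detected in none of the 5 P20 arrays, and its age difference of 6.38 came with a fall at P3 of 6.64 log2 units. Where a probe was not detected in a group its level is only an upper limit, so the differences between ages given here are fitted values.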

How the data were processed

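RNA of epidermis from 24 arrays was analysed. The authors deposited bead intensity per probe as exported by the scanner, per the file headers (AVG_Signal), with a background already subtracted in 4 arrays. Per the file headers, each deposited signal column comes with a detection p-value, although for 13 columns the deposited values behave as a fraction equal to 1 minus that p. The deposited table of log2 values was normalized by the authors. It rests on limma, according to the submitters' processing notes, and served as an alternative. The scanner software and a genome build are not given in the sources used here, and 1 column of the deposited tables was not used.

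From the intensities, background was corrected by normexp from the detection p (offset 16), followed by quantile normalization and log2, in limma 3.58.1 (R 4.3.3). Of 45281 probes, 20431 entered the fit, each detected (p under 0.01) in 2 or more arrays, and the brightest probe stood for its gene. Names were updated through RefSeq: 27760 probes matched a symbol and 7994 a synonym, and 9322 kept the name in the file. One mean per group was fitted over all 24 arrays (12 residual degrees of freedom), so the groups share 1 estimate of spread, and p-values were adjusted by Benjamini-Hochberg over 14215 genes. X- and Y-linked genes were then left out, and 2406 of the 13856 genes counted have no known chromosome here. Differences between ages are contrasts of that fit. An "at least" fold sets the bright group's mean against the lowest signal among detected probes, or the dim probe's own level where that is higher. Undetected arrays of the bright group enter its mean at their measured level. The number of arrays limits the precision.

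Genes were named by a rule: Mad2l1, Trp53 and Krt14, the 12 largest rises and 12 largest falls with arrays that did not overlap, up to 4 called members of each list (or the 2 brightest where none was called), and the 5 largest in each direction of the age contrasts. Other members were named after their values were seen, and some genes that the rule names are not reported here. The comparison and the lists were chosen with earlier results of these data known. Alternatives covered background, offset, normalization, filter, probes per gene, chip, array weights, moderation, sex, the arrays fitted and each array left out. Sex combined with chip was added after seeing the data. The steps were tested on simulated data.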

Additional observations from a re-analysis of the deposited data

Results flagged for a closer look

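Effects that differed between ages drew attention by the test of the difference itself, for 1068 genes between P20 and P13 and 489 between P20 and P3. The P20 groups of 2 and 3 arrays are too small for a test of outlying arrays.

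Relative to P13, the mutant minus control effect at P20 was higher by 9.04 log2 units for Padi1, 8.96 for Krt73, 8.67 for Crym, 8.50 for Krt72, 8.28 for Krt31 and 3.94 for Mlana. It was lower for Depp1 (-6.33), C3 (-4.86), Wfdc3 (-4.58), Smoc1 (-4.54), Trat1 (-3.27), Tnf (-3.16) and Cd7 (-2.21). The P13 arrays lay on a chip of their own.

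Relative to P3, the P20 effect was higher by 7.88 for Psors1c2, 7.71 for Chil4, 7.06 for Stfa2, 6.44 for S100a8 and 6.38 for Krtap19-4. It was lower for Krt15 (-6.64), Col4a1 (-4.84), Cyp4v3 (-4.80), Col6a1 (-4.57), Wfdc3 (-4.52), Tnf (-3.30), Trat1 (-3.04) and Cd7 (-2.29). Trat1, Cd7, Mlana and Tnf were chosen after their values were seen. Sex was read as female in both P20 mutants and in 0 of 2 P3 mutants, and with sex as a covariate 169 genes passed this contrast.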

How the results depend on the processing

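The count of 1393 genes called at P20 moved to 2315 with the chip as a fixed block, 2347 with it as a random block, 61 with the P20 arrays alone, 422 with those arrays and the chip, 767 on chip 1 alone, 2504 on chip 2 alone, 381 with array weights, 434 with sex as a covariate and 888 with sex and chip, an alternative added after seeing the data. Leaving out 1 array gave 925 to 3153 calls, with the extremes without control 5 and without control 3. Where a group was left with 1 array, that array was assumed to vary like the other groups. Without control 3, mutant 1 had no control on its own chip. In that fit, without either mutant and on single chips, the same-sign rule did not apply. The count of 1068 for P20 against P13 moved to 2107 and 2166 with the chip as a fixed or random block, 241 with the compared groups alone, 1772 and 1712 on chips 1 and 2, 647 with array weights and 2034 with sex and chip. Leaving out 1 array gave 859 to 1919, and mutant 2 (1907) and control 3 (1919) moved it most. The count of 489 for P20 against P3 moved to 1006 and 1042 with the chip blocks, 244 with the compared groups alone, 1716 on chip 2, 286 with array weights and 169 with sex. Leaving out 1 array gave 318 to 1661, and it was 809 without mutant 1, 1661 without control 3 and 318 without control 4. The fits on fewer arrays had fewer samples by construction, and for the other moves the cause was not tested. The background, offset, filter, probe, moderation and authors' normalization alternatives gave 1258 to 1782 calls at P20. Mad2l1, at -2.22, missed the threshold in the authors' normalized values (-0.64), with the P20 arrays alone (-2.22), on chip 1 (-1.85), with array weights (-2.53) and with sex and chip (-1.95), and lay between -2.59 and -1.85 with 1 array left out. Of 93 named genes called, 0 changed sign in the alternatives that gave them a value. Where detection in at least 12 arrays was required, 80 of them had a value. The call rule had already chosen these genes for the same sign on both chips, so the kept signs are no independent support. Of the 93, 45 were called with sex as a covariate, 21 with the P20 arrays alone and 92 without control 3. Probes not above background give only a bound. No paired analysis was possible because the mutant and control samples at P20 share no replicate number. The chip, which ties each mutant to its own controls, was used as the block instead.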

Other observations

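Of the genes outside the lists, 4 rises are given here that were chosen after their values were seen. Gjb6, which encodes connexin 30, stood at 12.02 and 12.27 in the mutants against 7.87, 7.51 and 7.36 in the controls, a rise of 4.57 ± 0.47 log2 units (limma adjusted p = 1.87e-05). Gjb2, which encodes connexin 26, rose by 4.60 ± 0.94, though control 3 (9.85) lay above controls 4 and 5 (7.14 and 6.08). Slurp2, a secreted Ly6 family protein, rose by 4.95 ± 0.52, and the neuropeptide gene Nmu was detected in both mutants and no control and rose at least 9.88-fold.

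Among falls outside the lists, also chosen after their values were seen, Trgv4, a gamma chain variable segment of the T cell receptor, fell by 2.60 log2 units (limma adjusted p = 0.0022). Ccn2, a matricellular protein, stood at 7.53 and 8.67 in the mutants against 11.49, 11.79 and 11.20 and fell by 3.40 log2 units. Its relative Ccn1 was detected in controls 4 and 5 and in neither control 3 nor the mutants. It fell at least 2.29-fold if control 3 is taken at its measured level. Col4a2, the partner chain of Col4a1, fell at least 2.58-fold. Txnip, an inhibitor of thioredoxin and glucose uptake, fell by 2.85 log2 units, Fbxo32, a ubiquitin ligase subunit, by 2.86, and Pik3ip1, an inhibitor of phosphoinositide 3-kinase, at least 1.87-fold. For Txnip, Fbxo32 and Pik3ip1 control 3 lay between the mutants and the other controls.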
